A study of Homo sapiens with 6 samples.

Results

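The transcription factors described here are 10 genes that specify the heart muscle lineage and its chambers: NKX2-5, GATA4, TBX5, TBX20, MEF2C, HAND1, HAND2, IRX4, HEY2 and NR2F2. They were chosen by symbol, and all 10 were found among the 38557 genes listed in each count table. The samples were heart muscle cells differentiated from the human pluripotent line WTC11, labelled WT, and their messenger RNA had been sequenced. In 3 of the samples the medium was RPMI plus B27, where B27 is a supplement used without serum, and in the other 3 it was DMEM plus fatty acids. Replicates were numbered 1 to 3 in each medium, and the comparison asks which transcripts differ with the backbone medium. All 6 libraries come from a single cell line. Neither the media recipes nor the length of culture are given, so base medium, supplement and fatty acids cannot be told apart.

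These factors form a mutually reinforcing network. NKX2-5 (a homeodomain protein), GATA4 (a zinc finger protein), TBX5 and TBX20 (T-box proteins) and MEF2C (a MADS-box protein) bind together at enhancers of contractile genes, and HAND1 and HAND2 are basic helix-loop-helix proteins that help form the left and right ventricle. Chamber identity is layered on top. IRX4 and HEY2 repress atrial genes in ventricular muscle, whereas NR2F2 (COUP-TFII) holds the atrial programme and represses ventricular genes.

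Gene rows held 23232324 to 31035389 counts per library, and 16107 genes passed the filter on low counts, all 10 factors among them. Values are given as CPM, counts scaled to a common library size after TMM normalisation, for RPMI plus B27 replicates 1, 2 and 3 and then for DMEM plus fatty acids replicates 1, 2 and 3. A gene is said to have passed, or to be called, when edgeR's quasi-likelihood test gave a Benjamini-Hochberg adjusted p under 0.05 over all genes tested. Defining cardiomyocyte markers were abundant in every library. Their summed level over 12 genes was 41187 to 51295 CPM in RPMI plus B27 and 28732 to 44221 CPM in DMEM plus fatty acids. Markers of other lineages were lower, and those of fibroblasts fell with the medium. The 12 fibroblast markers summed to 4341 to 8415 CPM in RPMI plus B27 and to 758 to 1959 CPM in DMEM plus fatty acids, with 6 of 12 called lower, and RPMI plus B27 replicate 1 had the highest sum. Of the other lineage markers, MYOD1, PAX7, MYF5 and NEUROD1 had no count in any library. The remaining skeletal muscle marker, MYOG, had 3, 5 and 3 counts in RPMI plus B27 and 1, 2 and 2 in DMEM plus fatty acids. The 5 neural markers, of which 2 were tested, summed to 13.0 to 18.9 CPM and to 10.2 to 18.0 CPM. In such bulk samples, fewer cells of a type and less RNA per cell cannot be told apart.

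The DNA upstream of the start sites of the 4 factors whose levels varied most over the 6 libraries is shown here, since 3 of them (IRX4, TBX5 and HEY2) were lowest in the same libraries, as described further on. The set of RefSeq promoter windows used here has entries for 8 of the 10 and lacks NKX2-5 and GATA4. Each run is the 250 bases before a start site in RefSeq (GRCh38.p14), 5′ to 3′ on the gene's own strand: IRX4 on chr5:1886946-1887195 (minus strand, the first of 3 start sites listed), TBX5 on chr12:114408013-114408262 (minus strand, the first of 2), HEY2 on chr6:125749382-125749631 (plus strand, the only one) and HAND1 on chr5:154478228-154478477 (minus strand, the only one). Capitals mark matches, on either strand, to any of 6 searched motifs.
IRX4: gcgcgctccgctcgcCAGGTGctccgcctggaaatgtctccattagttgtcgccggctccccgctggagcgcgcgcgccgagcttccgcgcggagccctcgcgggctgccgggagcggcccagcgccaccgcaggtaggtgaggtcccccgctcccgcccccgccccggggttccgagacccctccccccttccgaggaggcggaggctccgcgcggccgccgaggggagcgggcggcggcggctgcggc
TBX5: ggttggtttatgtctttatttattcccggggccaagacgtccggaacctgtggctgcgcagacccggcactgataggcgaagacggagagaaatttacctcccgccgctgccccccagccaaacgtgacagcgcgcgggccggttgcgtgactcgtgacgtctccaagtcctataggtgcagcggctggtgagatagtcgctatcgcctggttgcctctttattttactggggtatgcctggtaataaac
HEY2: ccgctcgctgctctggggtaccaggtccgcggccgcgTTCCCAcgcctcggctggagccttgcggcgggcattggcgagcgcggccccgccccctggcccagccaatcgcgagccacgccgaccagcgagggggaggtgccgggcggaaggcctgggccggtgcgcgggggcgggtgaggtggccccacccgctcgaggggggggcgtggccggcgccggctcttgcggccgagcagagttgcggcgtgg
HAND1: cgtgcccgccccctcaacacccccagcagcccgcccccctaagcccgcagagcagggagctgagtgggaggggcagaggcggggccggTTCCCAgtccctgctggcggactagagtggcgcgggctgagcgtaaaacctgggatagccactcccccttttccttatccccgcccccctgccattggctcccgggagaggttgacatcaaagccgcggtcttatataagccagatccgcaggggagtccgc
The motifs were AGATAA (for zinc finger factors such as GATA4, in 9.17% of 35116 windows of the same length), AGGTGT (T-box factors, 9.57%), AAGTG (NK2 homeodomain factors, 37.6%), CANNTG (the E-box of helix-loop-helix proteins, 61.8%), AGGTCA (nuclear receptors such as NR2F2, 12.1%) and TGGGAA (the core bound by the Notch effector RBPJ, 20.9%). An E-box may overlap a T-box match. The IRX4 window held 1 E-box, the HEY2 and HAND1 windows held 1 RBPJ core each, and the TBX5 window held none of the 6. A match describes the letters only and is not evidence of binding. IRX4 and HEY2 lie behind windows of 79.2% G and C, TBX5 behind one of 56.8% and HAND1 behind one of 67.2%, against a median of 58.0% over all windows.

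Expression of the core cardiac factors differed between media by less than the test could call. None of the 10 passed (0 of 10, edgeR quasi-likelihood test with Benjamini-Hochberg adjustment), beside 1.36% of all genes tested (0.292% with a rise and 1.07% with a fall in DMEM plus fatty acids). Of the 10, 1 had an unadjusted p under 0.05, beside 17.7% of all genes, and DESeq2's Wald test also called 0 of 10 with 1 at an unadjusted p under 0.05. The median log2 fold change, positive where DMEM plus fatty acids was higher, was 0.10 for the 10 factors and 0.01 for all genes, and the median absolute value was 0.18 against 0.25. With the replicate number as a block, a fit in which each culture is compared with its same-numbered partner, 0 of 10 passed beside 4.78% of all genes, and 2 of 10 (MEF2C and HEY2) had an unadjusted p under 0.05 beside 24.0%. Nor was any of the 10 called in any of the 6 fits that left out 1 library, although the count of called genes itself depended on single libraries. From 219 it fell to 30, 4 and 131 when replicate 1, 2 or 3 of RPMI plus B27 was dropped, and to 11, 12 and 3 when that of DMEM plus fatty acids was.

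**Figure D1:**
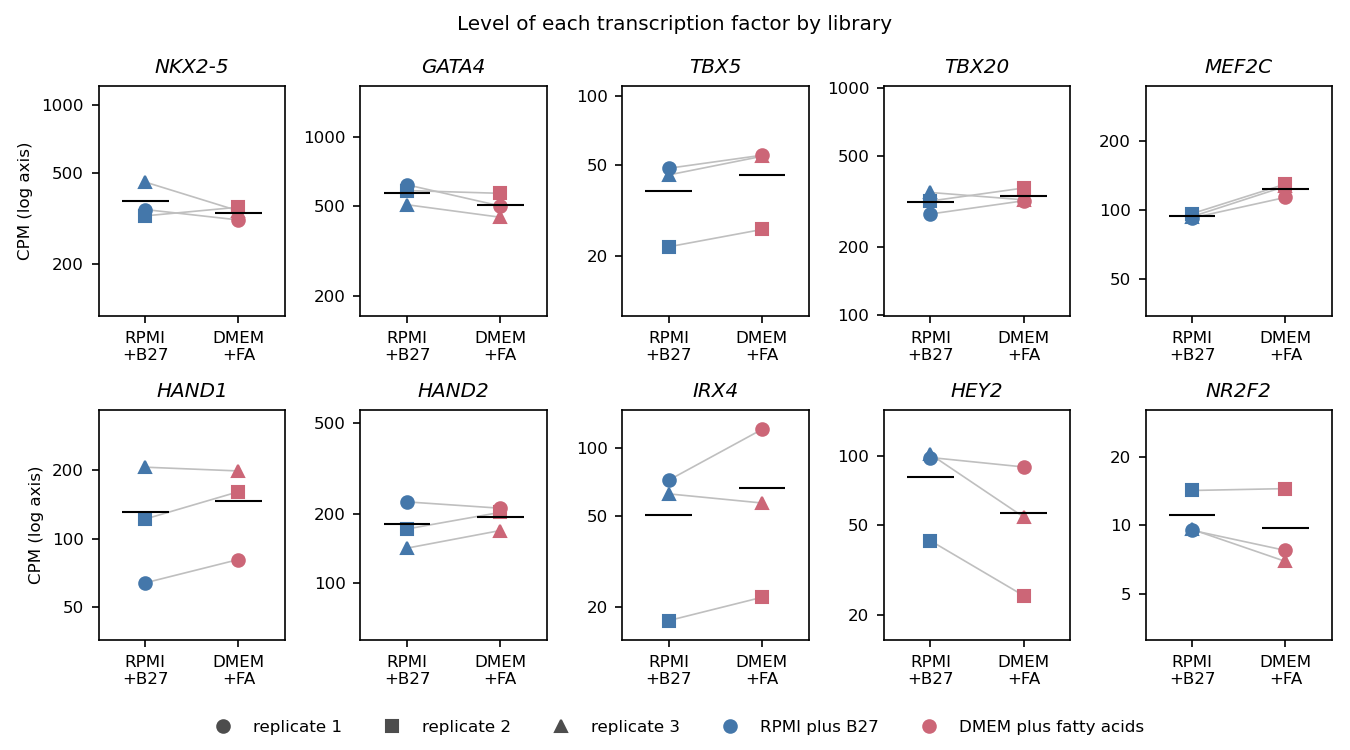
CPM of each factor on a log axis, 1 panel per gene, with RPMI plus B27 in blue and DMEM plus fatty acids in red. Marker shapes give the replicate number, grey lines join libraries of the same number and black bars are means of 3 libraries. MEF2C is the factor whose media do not overlap, while IRX4, HEY2, TBX5 and HAND1 are spread by replicate number in both media.

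NKX2-5 and its zinc finger partner GATA4 are among the earliest factors of the heart field and remain on in working muscle. NKX2-5 had 345.7, 324.3 and 456.4 CPM in RPMI plus B27 and 311.2, 354.0 and 341.0 CPM in DMEM plus fatty acids. The media overlapped, and the highest value was that of RPMI plus B27 replicate 3. Its log2 fold change was -0.16 ± 0.16 (SE), and the 95% interval of the fold ran from 0.689 to 1.16. GATA4 had 617.4, 582.5 and 504.6 CPM against 498.5, 566.3 and 444.7 CPM. It was lower in DMEM plus fatty acids in each of the 3 same-numbered pairs, but the media overlapped, with a log2 fold change of -0.18 ± 0.15 and a fold of 0.696 to 1.13 (95% interval). For both genes the interval excludes a loss to 0.5 of the RPMI plus B27 level or a doubling.

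The T-box factors differed in how steady they were. TBX20, required for growth and identity of chamber muscle, was the steadiest of the 10, with 278.4, 317.5 and 346.1 CPM in RPMI plus B27 and 318.3, 362.1 and 321.5 CPM in DMEM plus fatty acids. Its highest library stood 1.30-fold above its lowest, and 11.0% of all tested genes had a smaller SD of log2 CPM over the 6 libraries. The log2 fold change was 0.09 ± 0.13, with a fold of 0.859 to 1.32 (95% interval). TBX5, which marks the first heart field and is needed in atria, left ventricle and conduction tissue, had 48.4, 21.9 and 45.2 CPM against 55.2, 26.1 and 54.6 CPM. It was higher in DMEM plus fatty acids in all 3 pairs, by 1.14-, 1.19- and 1.21-fold, while replicate 2 was low in both media. Because of that spread the log2 fold change was 0.23 ± 0.37 with a fold of 0.642 to 2.15 (95% interval), and with the replicate block it was 0.24 ± 0.10 with an edgeR adjusted p of 0.220.

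MEF2C was the factor that stood closest to the threshold. It binds AT-rich sites in contractile and metabolic genes and is held back by class II histone deacetylases. Its level was 92.3, 96.4 and 93.6 CPM in RPMI plus B27 and 113.6, 130.0 and 127.1 CPM in DMEM plus fatty acids. The media did not overlap, every DMEM plus fatty acids library was higher, and the spread within RPMI plus B27 was small (94.1 ± 2.12 CPM against 123.5 ± 8.75 CPM, SD, n = 3 each). Media without overlap were found for 1 of the 10 factors and for 25.6% of all tested genes. The log2 fold change was 0.39 ± 0.10 with a fold of 1.31 (95% interval 1.11 to 1.56), an unadjusted p of 0.00651 and an edgeR adjusted p of 0.123. The replicate block gave an adjusted p of 0.0796 by edgeR, and over 12 alternatives it ran from 0.0613 to 0.352. Fibroblast markers, which fell with the medium, moved the opposite way, and their part in this difference was not tested. MEF2C is also transcribed in endothelial cells. Of 8 endothelial markers, PECAM1, CDH5, VWF and ERG had between 0 and 11 counts per library and were not tested. Of the 4 tested, KDR was higher in DMEM plus fatty acids (1.26 ± 0.76) and passed with the block (edgeR adjusted p 0.0245), whereas EMCN (-4.23 ± 1.01), TEK (-2.13 ± 0.51) and TIE1 (-0.97 ± 0.53) were lower. EMCN passed with the block (edgeR adjusted p 0.0237), and DESeq2 called EMCN and TEK. The part of endothelial cells in the MEF2C difference was not tested.

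HAND1 and HAND2 showed opposite orders over the replicates. HAND1 had 64.0, 122.0 and 206.2 CPM in RPMI plus B27 and 81.0, 160.9 and 198.5 CPM in DMEM plus fatty acids. HAND2 had 226.3, 172.0 and 141.7 CPM against 212.2, 203.5 and 169.3 CPM. Replicate 1 was thus lowest for HAND1 and highest for HAND2 in both media, and replicate 3 the reverse. The ratio of HAND1 to HAND2 counts within a library was 0.283, 0.709 and 1.45 in RPMI plus B27 and 0.382, 0.791 and 1.17 in DMEM plus fatty acids. Its difference between media was 0.09 on the log2 scale (exact two-sided permutation test, p = 0.9, where 3 against 3 libraries allow no p under 0.1). The log2 fold change was 0.17 ± 0.46 for HAND1 (fold 0.537 to 2.35, 95% interval) and 0.12 ± 0.19 for HAND2 (0.797 to 1.47). HAND2 shares exon sequence with its antisense neighbour HAND2-AS1 over 24.1% of its annotated exon length, and the strand setting of the counting is not stated, so reads of the pair may not be fully separated. HAND2-AS1 itself had 75.4, 48.8 and 45.0 CPM against 84.0, 58.2 and 64.2 CPM, with replicate 1 highest in both media as for HAND2.

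**Figure D2:**
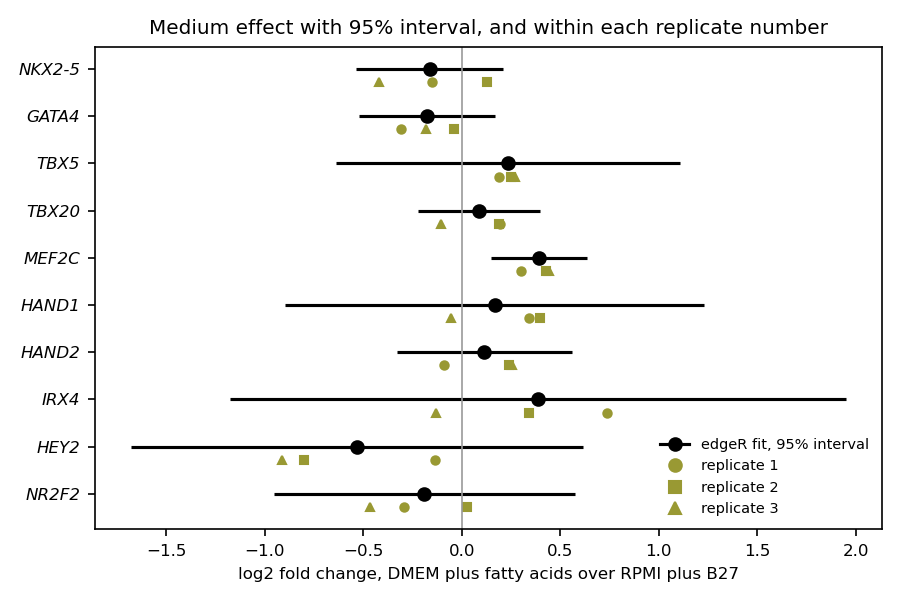
Log2 fold change of each factor between media, with black points and bars for the edgeR fit and its 95% interval and small green markers for the 3 same-numbered pairs. The MEF2C interval lies above 0, the other 9 cross it, and the intervals of IRX4, HEY2 and HAND1 are the widest.

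The ventricular factors IRX4 and HEY2 were the most variable of the 10, and replicate 2 had the lowest level of both in each medium. IRX4 had 72.2, 17.4 and 62.8 CPM in RPMI plus B27 and 120.6, 22.1 and 57.3 CPM in DMEM plus fatty acids. Replicate 2 was far below replicates 1 and 3 in both media, and the media overlapped. The log2 fold change was 0.39 ± 0.67, with a fold between 0.443 and 3.87 (95% interval), so neither a fall to 0.5 nor a 3-fold rise is outside what these libraries allow. HEY2 had 98.5, 42.4 and 101.6 CPM against 89.5, 24.3 and 53.9 CPM. It was lower in DMEM plus fatty acids in all 3 pairs, at 0.909, 0.574 and 0.530 of its partner, and replicate 2 was again the lowest in each medium. HEY2 had a log2 fold change of -0.53 ± 0.49 (fold 0.312 to 1.53, 95% interval) with an edgeR adjusted p of 0.614, and -0.62 ± 0.17 with 0.0987 under the replicate block.

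NR2F2, the atrial factor, had 9.49, 14.2 and 9.58 CPM in RPMI plus B27 and 7.75, 14.5 and 6.94 CPM in DMEM plus fatty acids. Here replicate 2 was the highest library of each medium, the reverse of IRX4 and HEY2. The log2 fold change was -0.19 ± 0.33 (fold 0.517 to 1.49, 95% interval). Counts of IRX4 per count of NR2F2 were 7.60, 1.23 and 6.56 in RPMI plus B27 and 15.6, 1.52 and 8.26 in DMEM plus fatty acids. Within each pair the ratio was higher in DMEM plus fatty acids, by 1.03, 0.31 and 0.33 on the log2 scale, and the exact two-sided sign-flip test over pairs gave p = 0.25, the smallest that 3 pairs allow. Without pairing, the difference of means of 0.56 was smaller than the SD within a medium of 1.46 and 1.73 (exact two-sided permutation test, p = 0.5). HEY2 per NR2F2 was 10.4, 2.99 and 10.6 against 11.5, 1.68 and 7.77, a difference of -0.37 on the log2 scale (exact two-sided permutation test, p = 0.7). The adjusted p over the 3 ratios was 0.9 for each, in the same exact tests. Without pairing, all 3 log2 differences changed sign when 1 library was left out, which leaves its replicate number in 1 medium only. That of IRX4 over NR2F2 became -0.28 without RPMI plus B27 replicate 2 and -0.15 without DMEM plus fatty acids replicate 1, that of HEY2 over NR2F2 became 0.46 without DMEM plus fatty acids replicate 2, and that of HAND1 over HAND2 became -0.52 without RPMI plus B27 replicate 1 and -0.27 without DMEM plus fatty acids replicate 3.

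**Figure D3:**
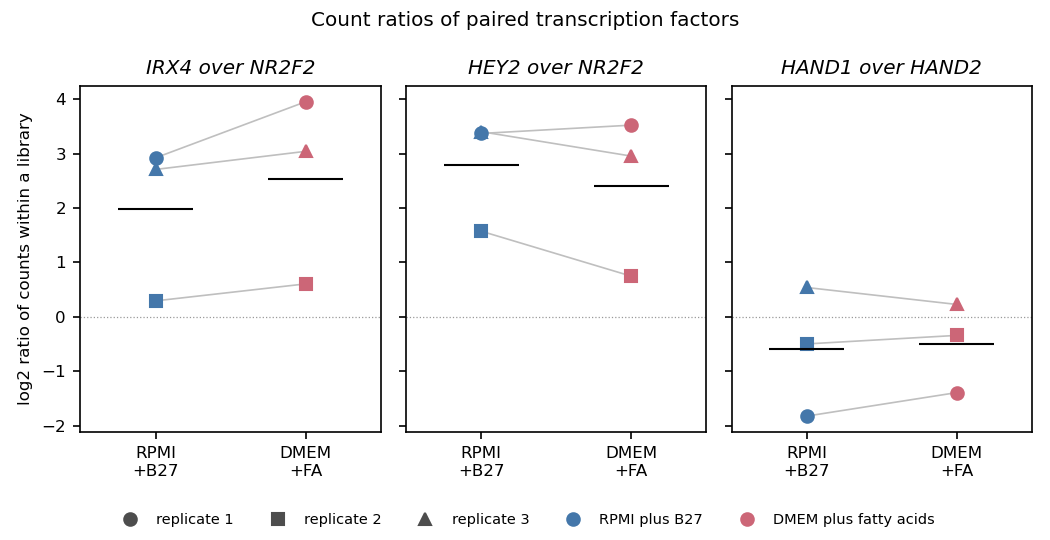
Log2 ratio of counts within each library for IRX4 over NR2F2, HEY2 over NR2F2 and HAND1 over HAND2. Colours give the medium, shapes the replicate number, grey lines join same-numbered libraries and black bars are means of 3. Replicate 2 is lowest in the first 2 panels in both media, and replicate 1 in the last.

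Several of the factors differed more between replicate numbers than between media. When the replicate number was tested in the fit that also holds the medium (edgeR quasi-likelihood test on 2 degrees of freedom), 3 of 10 factors passed, beside 0.844% of all genes tested. They were IRX4 (adjusted p 0.0421), HAND1 (0.0439) and TBX5 (0.0439). HEY2 had an adjusted p of 0.0615 in the same edgeR test, NR2F2 0.177, HAND2 0.257 and the other 4 between 0.538 and 0.785. An unadjusted p under 0.05 was found for 6 of 10, beside 17.2% of all genes. Without the filter on low counts the same test called 4 factors, HEY2 among them (edgeR adjusted p 0.00789), and 708 genes. HEY2 missed the threshold with total-count scaling (0.0544), DESeq2 scaling (0.0585) and the stricter filter (0.0676), so its distance from the 3 called factors depends on the processing. This test was added after the values were seen, and the labels do not say what a shared number stands for. TBX5 lost its call when replicate 2 of RPMI plus B27 (edgeR adjusted p 0.186) or of DMEM plus fatty acids (0.197) was dropped, whereas IRX4 and HAND1 passed in all 6 fits that left out 1 library. The count of factors was 5, 2 and 4 without RPMI plus B27 replicate 1, 2 and 3 and 6, 2 and 4 without DMEM plus fatty acids replicate 1, 2 and 3, while the count over all genes, 136, became 2165, 235 and 319 and then 2484, 160 and 142.

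Averaged over media, the highest replicate number stood 4.88-fold above the lowest for IRX4, 2.81-fold for HEY2, 2.79-fold for HAND1, 2.16-fold for TBX5 and 1.74-fold for NR2F2, and 1.10- to 1.41-fold for the other 5. The replicate number held 94.0% of the sum of squares of log2 CPM for IRX4, 94.3% for HAND1, 94.8% for TBX5, 84.3% for NR2F2, 79.0% for HAND2 and 77.9% for HEY2. The medium held 2.61% for IRX4, 3.22% for HAND1 and 5.12% for TBX5, but 90.6% for MEF2C. Over all tested genes the median shares were 39.9% for the replicate number and 25.5% for the medium, beside 40% and 20% of the degrees of freedom. By range, the 10 factors thus split into a narrow group (NKX2-5, GATA4, TBX20 and MEF2C, each with a highest library at most 1.47-fold above its lowest), HAND2 at 1.60-fold, and a group with a wider range. In that last group IRX4 spanned 6.91-fold, HEY2 4.18-fold, HAND1 3.22-fold, TBX5 2.52-fold and NR2F2 2.09-fold. Of all tested genes, 95.9%, 90.8%, 86.0%, 79.5% and 67.7% had a smaller SD of log2 CPM than these factors, in that order. For the narrow group it was 11.0% to 34.7%, and for HAND2 40.8%. MEF2C, though narrow in range, did not overlap between media.

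**Figure D4:**
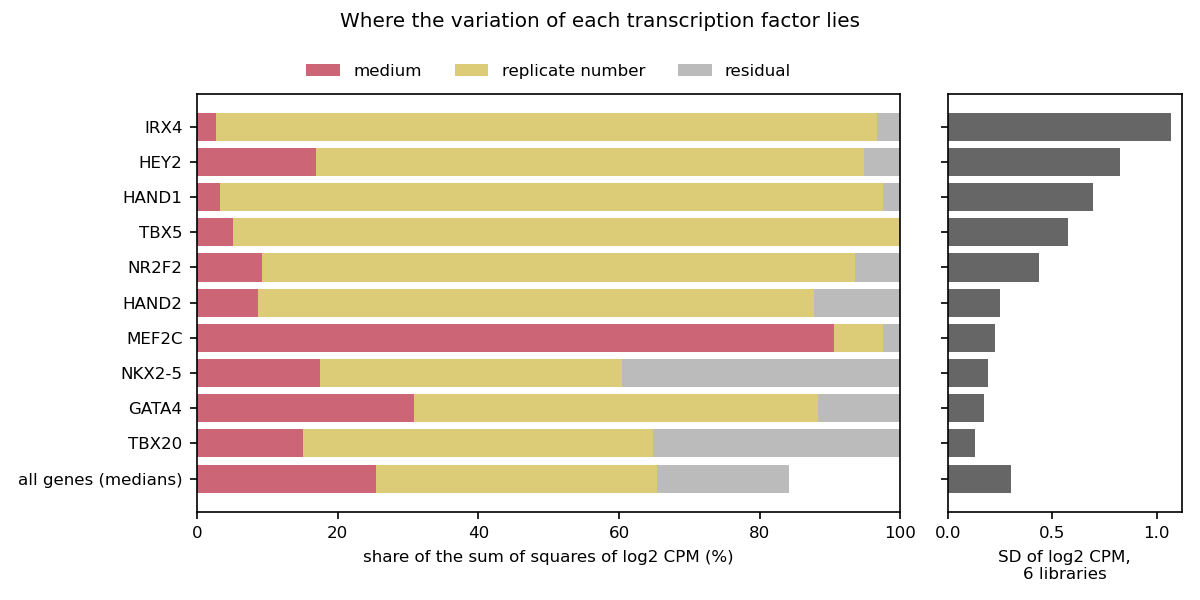
Left, share of the sum of squares of log2 CPM held by medium, replicate number and residual for each factor, ordered by SD. Right, SD of log2 CPM over the 6 libraries. The replicate number holds 94.0% for IRX4 and the medium 90.6% for MEF2C, and the lowest bar gives medians over all 16107 tested genes, which need not add up to 100%.

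Some markers of other cell types also differed between replicate numbers. The replicate test called 2 of the 3 endoderm markers tested and 1 of 4 endothelial markers, beside 0.844% of all genes, and 0 of the fibroblast, smooth muscle, epicardial, pluripotent and neural markers tested. The 8 endoderm markers, of which 5 were too low to be tested, summed to 15.9, 44.0 and 113.9 CPM in RPMI plus B27 and to 7.75, 21.6 and 32.3 CPM in DMEM plus fatty acids, lowest in replicate 1 as HAND1 was, and AFP and TTR passed the replicate test (edgeR adjusted p 0.0439 and 0.0467). KDR, a receptor of endothelial and early cardiac mesoderm cells, followed the same order with 27.5, 143.0 and 238.9 CPM against 114.5, 399.6 and 463.2 CPM, with an edgeR adjusted p of 0.0439 in the replicate test. The other endothelial markers did not share that order. EMCN had 7.80, 1.32 and 1.23 CPM against 0.301, 0.234 and 0.0296 CPM, and TEK 1.13, 0.723 and 0.485 CPM against 0.258, 0.1003 and 0.178 CPM. The part of these cell types in the HAND1 difference was not tested. The cardiomyocyte marker sum of replicate 2, in which IRX4, HEY2 and TBX5 were low, was 46495 CPM in RPMI plus B27, between those of the other replicates, and 44221 CPM in DMEM plus fatty acids, above them. Its part in these differences was not tested.

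The genes whose log2 CPM over the 6 libraries was most like that of a factor were sought among the 10028 tested genes that averaged 10 CPM or more. IRX4 was most like ADAM11 (Pearson's r = 0.995), FITM1 (0.992) and EMC9 (0.980), and HEY2 most like GRID1 (0.991), TANC1 (0.982) and AKR1B1 (0.980). FITM1, a lipid droplet protein of striated muscle, had 71.4, 20.5 and 55.1 CPM in RPMI plus B27 and 120.1, 24.4 and 66.0 CPM in DMEM plus fatty acids, lowest in replicate 2 of each medium like IRX4. EMC9 was also lowest there but over a much narrower range, with 19.9, 14.7 and 18.0 CPM against 20.7, 14.6 and 18.0 CPM. HAND1 was most like OLFML3 (0.995), NLN (0.990) and HMGN5 (0.989), and NR2F2 most like NPDC1 (0.979), CARNMT1 (0.974) and ZEB2 (0.972). Among the factors themselves, IRX4 and TBX5 were each other's nearest (0.949), HEY2 was nearest to IRX4 (0.825) and NR2F2 to GATA4 (0.713). With 6 libraries that share 3 replicate numbers, such values describe a shared order and carry no test. They were picked as the highest among the genes compared, and they do not measure the size of a difference.

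Levels of different genes are comparable only per length, here as CPM per kilobase of annotated exon (GENCODE release 29). On that scale NKX2-5 (187.6 ± 35.4 with RPMI plus B27 and 167.6 ± 11.0 with DMEM plus fatty acids; mean ± SD, n = 3 each, as for the others) and TBX20 (167.8 ± 18.2 and 178.5 ± 13.1) were the highest and did not differ beyond their spread, followed by GATA4 (149.9 ± 15.2 and 132.8 ± 16.1). HAND1 (75.2 ± 41.1 and 84.5 ± 34.5) and HAND2 (64.8 ± 15.4 and 70.2 ± 8.15) came next and overlapped. HEY2 (29.5 ± 12.2 and 20.4 ± 11.9) and IRX4 (18.9 ± 10.9 and 24.8 ± 18.6) also overlapped, as did MEF2C (10.9 ± 0.245 and 14.3 ± 1.01) and TBX5 (8.85 ± 3.33 and 10.4 ± 3.83). NR2F2 (1.72 ± 0.419 and 1.51 ± 0.643) was the lowest in all 6 libraries, under TBX5 without overlap. The order places the ventricular factors above the atrial one in each library on this scale, but it depends on the annotated exon length.

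Relatives of the factors went both ways. Of 19 family members, 15 were tested and 0 passed (8 higher and 7 lower, median log2 fold change 0.08). An unadjusted p under 0.05 was found for 3, beside 17.7% of all genes. DESeq2's Wald test called TBX18 and HEYL. With the replicate block 2 of 15, TBX18 and HEYL, passed downward, beside 3.42% of all genes. TBX18, a T-box gene of epicardium and sinus node, had 7.72, 3.11 and 4.10 CPM against 1.12, 0.803 and 1.36 CPM (log2 fold change -2.18 ± 0.42, edgeR adjusted p 0.0605, and 0.0271 with the block). HEYL, a Notch target of vascular mural cells, had 15.4, 7.96 and 3.28 CPM against 3.49, 2.94 and 1.72 CPM (-1.72 ± 0.56, 0.178 and 0.0422). Both are transcribed in cells outside heart muscle, and fibroblast and smooth muscle markers fell alongside, the latter from 1911 to 2328 CPM summed over 7 genes to 503 to 1431 CPM. That part was not tested. HEY1, the closest relative of HEY2, had -1.14 ± 0.47 (adjusted p 0.270 by edgeR) and IRX3 0.52 ± 0.24 (0.317). IRX2 passed the replicate test (0.0479) and had 7.27, 1.62 and 2.31 CPM against 10.8, 2.74 and 3.02 CPM, highest in replicate 1 as IRX4 was.

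Among 15 cofactors, 4 were higher and 11 lower (median -0.33), and 7 had an unadjusted p under 0.05, beside 17.7% of all genes. HOPX passed, 1 of 15 beside 1.07% of all genes called lower, the other 14 did not, and DESeq2's Wald test also called HOPX and no other. HOPX is a homeodomain-only protein that binds no DNA and restrains SRF and GATA4 activity in heart muscle. It fell from 144.9, 102.3 and 68.8 CPM to 22.8, 22.2 and 17.5 CPM, without overlap (log2 fold change -2.34 ± 0.28, edgeR adjusted p 0.0270, and 0.00613 with the replicate block). The call was lost without RPMI plus B27 replicate 2 (adjusted p 0.0958 by edgeR), and likewise when replicate 1, 2 or 3 of DMEM plus fatty acids was dropped (0.0785, 0.0807 and 0.0832 in the same test), and the log2 fold change stayed between -2.57 and -2.04. The fibroblast marker sum fell with it. So did the smooth muscle sum, where LMOD1 was called lower (edgeR adjusted p 0.0292), 1 of 7 beside 1.07% of all genes. The epicardial sum also fell, from 139.5 to 305.6 CPM to 87.8 to 122.1 CPM, with 0 of 7 tested markers called. The part of these cell types in the HOPX difference was not tested. Of the others, MYOCD, the SRF coactivator myocardin, had -0.45 ± 0.14 (adjusted p 0.165 by edgeR), TEAD1, which binds next to GATA4 and TBX5 at cardiac enhancers, -0.34 ± 0.11 (0.180), and MEIS1, a homeodomain cofactor, 0.41 ± 0.11 (0.136). Each was without overlap between media, as were 25.6% of all tested genes. PRDM16, which supports ventricular compact muscle, passed the replicate test (edgeR adjusted p 0.0386) and had 81.0, 24.4 and 50.3 CPM against 68.8, 17.7 and 40.5 CPM, lowest in replicate 2 like IRX4, HEY2 and TBX5.

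Of 21 contractile, hormone and channel genes known as targets of these factors, 0 passed (9 higher, 12 lower, median -0.09). An unadjusted p under 0.05 was found for 5, beside 17.7% of all genes. With the replicate block, 3.42% of all genes passed downward and 1.36% upward. The natriuretic peptide genes NPPB (-3.83 ± 0.70) and NPPA (-1.75 ± 0.35) were lower and CKM (0.69 ± 0.18) higher, with edgeR adjusted p values of 0.0540, 0.0646 and 0.112, and these 3 passed with the block (0.0238, 0.0460 and 0.0438). DESeq2's Wald test called these 3, MYH6 and XIRP2. NPPB had 397.0, 216.1 and 224.2 CPM against 18.5, 36.0 and 4.39 CPM, without overlap, as for 25.6% of all tested genes. TNNI3, the adult cardiac troponin I, passed the replicate test (edgeR adjusted p 0.0421), with 265.0, 222.9 and 78.1 CPM against 332.9, 264.3 and 115.0 CPM, lowest in replicate 3.

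Chamber genes were mixed in direction. Of 7 ventricle-enriched genes 0 passed without the block (2 higher, 5 lower, median -0.34), with 3 at an unadjusted p under 0.05, beside 17.7% of all genes. MYH7 passed downward with the block (-1.27 ± 0.39, edgeR adjusted p 0.163 without it and 0.0359 with it), beside 3.42% of all genes. DESeq2 called MYH7, FHL2 and KCNJ2. FHL2, a LIM-domain cofactor, had -1.28 ± 0.38, GJA1, the main ventricular connexin, -0.91 ± 0.41, and KCNJ2, an inward rectifier channel gene, 1.28 ± 0.33. MYL2, the ventricular myosin light chain, was singled out after its values were seen. It had 647.5, 118.4 and 166.2 CPM against 417.7, 62.9 and 253.4 CPM, lowest in replicate 2 of each medium as IRX4 was, with an edgeR adjusted p of 0.0669 in the replicate test. That test called 0 of the 7 ventricle-enriched genes, and no other of them was lowest in replicate 2 of both media. Of 12 atrium-enriched genes 11 were tested and 0 passed (3 higher, 8 lower, median -0.15), with 4 at an unadjusted p under 0.05, beside 17.7% of all genes. With the block NPPA, SLN and KCNA5 passed downward, beside 3.42% of all genes. DESeq2 called NPPA, SLN, BMP10 and MYH6. SLN, the atrial SERCA inhibitor sarcolipin, had 8.10, 4.34 and 1.01 CPM against 0.387, 0.0669 and 0.296 CPM (-4.17 ± 0.88, edgeR adjusted p 0.0751 and 0.0403), and without RPMI plus B27 replicate 3 it passed with 0.0418, as did BMP10 with 0.0418. KCNA5, an atrial potassium channel, had 35.9, 4.76 and 2.50 CPM against 8.31, 2.01 and 0.889 CPM, and its log2 fold change of -1.97 ± 1.14 became 0.02 without RPMI plus B27 replicate 1. It passed the replicate test (edgeR adjusted p 0.0386), 1 of the 11 atrium-enriched genes to do so, and was highest in replicate 1 of each medium, as IRX4 was. GJA5, also on the atrial list, was lowest in replicate 2 of each medium, as IRX4 was, whereas MYL7 was highest there, as NR2F2 was.

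**Figure D5:**
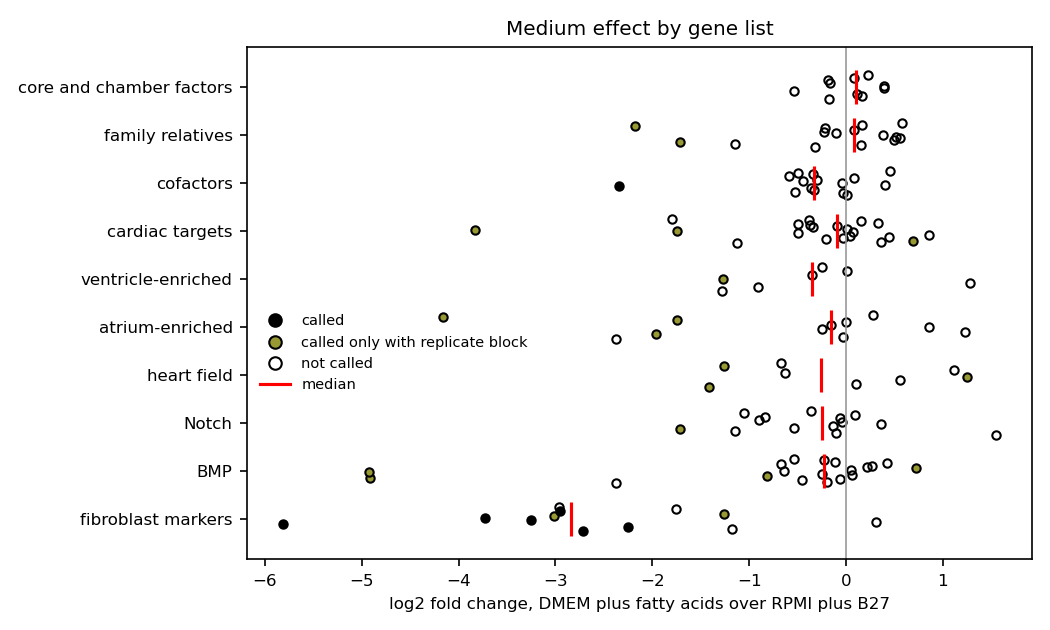
Log2 fold change between media of each tested gene, by list, with filled black points for genes called, green for genes called only with the replicate block, open for the rest, and a red line at each median. The 10 core and chamber factors lie between -0.53 and 0.39 with no filled point, while 6 fibroblast markers are called lower.

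Progenitor and signalling genes upstream of the factors were likewise mostly uncalled. Of 14 heart field genes 8 were tested and 0 passed (median -0.26), with 2 at an unadjusted p under 0.05, beside 17.7% of all genes. With the block KDR passed upward (beside 1.36% of all genes) and EYA1 and PDGFRA downward (beside 3.42%). DESeq2 called EYA1 and PDGFRA, and PDGFRA, which fibroblasts share, also passed without RPMI plus B27 replicate 3 (edgeR adjusted p 0.0444). ISL1, the factor that marks the second heart field and sinus node, passed the replicate test (edgeR adjusted p 0.0467), with 16.1, 34.3 and 18.6 CPM against 20.5, 54.3 and 26.9 CPM. It was highest in replicate 2 in both media, as NR2F2 was. Of 15 Notch genes 14 were tested and 0 passed (3 higher, 11 lower, median -0.25), with 5 at an unadjusted p under 0.05, beside 17.7% of all genes. HEYL was called lower under the block (beside 3.42% of all genes) and by DESeq2. NOTCH1 had -0.90 ± 0.32, NOTCH3 -0.83 ± 0.34 and the ligand gene DLL1 1.55 ± 0.43 at under 1 CPM. Of 19 BMP genes 0 passed (6 higher, 13 lower, median -0.22, 7 at an unadjusted p under 0.05), beside 17.7% of all genes. With the block BMP6, BMP7 and the antagonist GREM1 passed downward (3 of 19, beside 3.42% of all genes) and ID2 upward (1 of 19, beside 1.36%). The fibroblast, smooth muscle and epicardial marker sums fell alongside the downward calls, and their part was not tested. DESeq2 called BMP6, BMP7, BMP10 and GREM1. GREM1 also passed without RPMI plus B27 replicate 3 (edgeR adjusted p 0.0469). BMP7 had 311.5, 235.5 and 187.5 CPM against 172.1, 142.0 and 103.6 CPM (-0.81 ± 0.24, edgeR adjusted p 0.155 and 0.0191).

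Antisense genes next to the factors or their relatives GATA6 and NR2F1 were not called either. Of 8 such genes 4 were tested and 0 passed, 0 of them at an unadjusted p under 0.05 by edgeR and 0 by DESeq2. TBX5-AS1, which overlaps 5.78% of the annotated TBX5 exon length, had 2.49, 1.53 and 2.83 CPM against 3.49, 1.04 and 3.53 CPM, lowest in replicate 2 as TBX5 was. MEF2C-AS1, which shares 5.36% of the MEF2C exon length together with MEF2C-AS2, had under 1 CPM in each library and -0.86 ± 0.57, opposite in sign to MEF2C. GATA6-AS1 passed the replicate test (edgeR adjusted p 0.0439), highest in replicate 1 of each medium.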

How the data were processed

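RNA had been isolated on silica columns with DNase digestion and made into stranded mRNA libraries, per the labels' protocols. Each deposited table gave 1 library's unnormalised read counts by gene symbol. STAR, HTSeq and hg38 are named in the submitters' processing notes, with no versions, and the annotation and strand setting are not given in the sources used here. The 5 summary rows, which name no gene, were left out of tests and held 12.8% to 15.6% of each library. Groups and replicate numbers came from the titles.

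Counts were filtered with filterByExpr (minimum count 10, minimum total 15), scaled by TMM and tested with edgeR 4.0.16 in R 4.3.3 over all genes. Each standard error is the absolute log2 fold change over the root of F. Patterns were compared on log2 CPM (prior count 2) and ratios used a pseudocount of 1. Replicates are labelled biological, with no source culture named, so p-values measure the spread between these samples. Deviations of same-numbered libraries from the mean of their medium correlated across genes at 0.313, 0.428 and 0.365, and others at -0.242 to -0.136. A gene's deviations cancel out within a medium, so the negative values follow from the positive ones. The numbers were taken to pair libraries from these values, since the labels do not say what a shared number stands for. This check, the replicate test and the replicate block use the same values. No library pair agreed within sampling noise (chi-square per degree of freedom at least 32.2).

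Alternatives were total-count and DESeq2 scaling, DESeq2 1.42.0, other filters, the replicate block and leaving out each library. Members, gene lists and tests were chosen with earlier results of these data known. Named were all factors, up to 4 genes with the smallest p and every called gene of a list, and the 3 most alike genes of 4 factors. PRDM16, IRX2, ISL1, TNNI3, MYL2, GJA5, MYL7 and SOX17 were named after their values were seen. Fits were tested on simulated data. Without molecular identifiers, the precision of a single CPM value covers counting error only, and 3 counts equal 0.0889 to 0.129 CPM. Standard errors and intervals of the fits also hold the spread between libraries.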

Additional observations from a re-analysis of the deposited data

How the results depend on the processing

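The count of genes called between media was 202 with total-count scaling and 217 with DESeq2 size factors, 1237 by DESeq2, 539 without the filter on low counts, 119 where each library had to hold 10 counts of a gene and 770 with the replicate block, against 219, and 3 to 131 without 1 library. Calls of the lower direction were 78.5% of the total and 63.4% under total-count scaling, where the median over all genes was 0.12 on the log2 scale. No factor was called in any of the 12 alternatives, and the replicate block changed no call among them. Without 1 library, log2 fold changes ran from -0.26 to 0.0039 for NKX2-5, -0.049 to 0.51 for TBX5, -0.16 to 0.66 for HAND1, -0.028 to 0.31 for HAND2, -0.36 to 0.81 for IRX4 and -0.59 to 0.027 for NR2F2, crossing 0, while GATA4, TBX20, MEF2C and HEY2 kept their sign in all 12. Ratio differences without 1 library ran from -0.28 to 1.52 (IRX4 over NR2F2), -0.98 to 0.46 (HEY2 over NR2F2) and -0.52 to 0.66 (HAND1 over HAND2). Exact two-sided sign flips within pairs (replicate block) gave p = 0.25, the smallest possible, 0.5 and 0.75, against 0.5, 0.7 and 0.9 without pairing. Genes differing between replicate numbers were 708 without the filter and 74 under the stricter filter, against 136, and 142 to 2484 without 1 library, and factors 2 to 6 without 1 library. GATA6-AS1 had -0.04, and 0.063 with total-count scaling and 0.021 with the replicate block, running from -0.44 to 0.52 without 1 library, and TBX5-AS1 ran from -0.023 to 0.62 and KCNA5 from -3.31 to 0.024. The causes of these changes were not tested. NR2F2 had the fewest counts of the 10, 180 to 433 per library.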

Other observations

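NR2F1, the other COUP-TF gene of atrial muscle, was too low to be tested, with 74, 4 and 6 counts in RPMI plus B27 and 1, 1 and 0 counts in DMEM plus fatty acids. The T-box gene TBX1 of the second heart field had 44, 9 and 5 counts against 2, 1 and 4. Both were highest in RPMI plus B27 replicate 1. The hepatic and foregut factors HNF4A, at 0, 7 and 118 counts against 3, 2 and 39, and FOXA2, at 0, 3 and 46 against 0, 3 and 34, were highest in replicate 3 of each medium. SOX17, from the same list of endoderm markers, went the other way. It had 11, 16 and 4 counts against 1, 2 and 0, lowest in replicate 3 of each medium.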
